A study of Homo sapiens with 6 samples.

Results

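The aminoacyl-tRNA synthetase genes were examined in RNA-seq of PANC-1, an established line of human pancreatic cancer cells, with ZDHHC20 silencing. Members were chosen by symbol alone, as 1 letter plus ARS1 or ARS2 (older names without the 1 included), together with EPRS1, FARSA and FARSB, and their mean over the 6 libraries had to reach 1. All 37 genes of this rule had a row among the 27394 genes listed, and all 37 passed the filter and were among the 22189 genes tested. The cytosolic class held 20 genes, of which GARS1 and KARS1 also make the mitochondrial enzyme, and the mitochondrial class held 17. By the sample labels the cells were grown in RPMI-1640 with serum, while the methods of the study give DMEM for its cell lines in general. They were infected with a control shRNA (shControl, 3 libraries) or an shRNA against ZDHHC20 (shZDHHC20, 3 libraries), and libraries were made from total RNA with a directional kit. The 2 groups differed in the shRNA alone as far as the labels say, and the shRNA sequence used for these libraries is not given in the sources used here. The study speaks of biological replicates for its in vitro experiments in general, but the labels do not say whether the 3 libraries of a group came from separate cultures, so p-values measure the spread between these libraries, which may be technical.

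An aminoacyl-tRNA synthetase joins 1 amino acid to its own tRNAs, and so sets which amino acid is read for a codon. Protein synthesis in the cytosol and in mitochondria uses separate enzymes in most cases, all of them encoded in the nucleus, with gene names that end in 1 for the cytosol and in 2 for mitochondria. Several cytosolic synthetases sit together in the multisynthetase complex on the scaffold proteins AIMP1, AIMP2 and EEF1E1. Many cytosolic synthetase genes are known targets of ATF4, the transcription factor of the amino acid response, which reads elements with the core TGATGNAA together with C/EBP partners. The E-box CACGTG is read by MYC, MAX and related factors.

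The authors' values rose in even steps in each library, like read counts scaled by library, and are called normalized counts here. They summed to between 17083277 and 18007664 per library, and the relative depth of the libraries lay between 93.06% and 103.5% of their mean. ZDHHC20 was at 2001, 2033 and 1940.4 normalized counts in the shControl libraries and at 872, 779 and 893 in the shZDHHC20 libraries, so the silenced gene separated the groups as labelled (log2 fold change -1.23, adjusted p = 4.36e-07 from limma). Of the epithelial markers, KRT8 (56187 ± 813, SD, n = 3), KRT18 (19660.2 ± 258) and KRT19 (5917 ± 137) were high in shControl, while EPCAM (72.4 ± 20.5) and KRT7 (86.5 ± 16.9) were low. EPCAM and CDH1 rose in shZDHHC20 (log2 fold changes 2.89 and 1.13). KRT8 (-0.13), KRT18 (-0.16) and KRT7 (-0.06) had values below 0 and KRT19 (0.09) above, and these 4 were not called. The groups did not overlap in KRT8, KRT18 and KRT19. No marker of the other cell types was called. The 8 markers of other cell types in the table ranged from 0 (LUM, fibroblast) to 76.4 (COL3A1, fibroblast) in shControl means, with CD14 (leukocyte) at 31.2, CDH5 (endothelial) at 6.71 and the other 4 at or under 1.34. COL3A1 was at 86.2 and CD14 at 27.4 in shZDHHC20. In bulk RNA, fewer cells of a type and less RNA per cell cannot be told apart. The library shZDHHC20 replicate 2 stood apart from the other libraries of its group. Over the 4136 genes whose mean reached 1000, the SD of the log2 difference was 0.0674 to 0.0718 between shControl libraries and 0.0722 between shZDHHC20 replicates 1 and 3, but 0.178 and 0.198 between replicate 2 and these. Genes of the mitochondrial genome made up 4.01% of replicate 2 and between 5.28% and 5.52% of the other 5 libraries. The calls and the class and pair summaries are therefore also given without it.

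Promoter sequence was a feature that the symbol rule did not use, and the RefSeq windows of GRCh38.p14 (250 bases before and 50 bases from the start of a gene on) were searched for both motifs on both strands. Windows were found for 30 of the 37 genes, and those not matched include AARS2, LARS1, VARS1, VARS2 and YARS1. TGATGNAA was in 7 of 16 cytosolic genes (43.75%) and in 1 of 14 mitochondrial genes (7.14%), against 4.46% of the 27305 genes with a window and 3.62% of 35116 windows. The stretches are shown because this motif separated the cytosolic from the mitochondrial class. Capitals mark the match with 10 bases on each side, in the direction of the gene, and TTNCATCA is TGATGNAA read on the opposite strand.
IARS1: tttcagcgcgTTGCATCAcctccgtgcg
CARS1: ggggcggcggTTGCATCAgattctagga
MARS1: ccggttccggTTGCATCAgcgagggatt
TARS1: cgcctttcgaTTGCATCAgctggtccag
AARS1: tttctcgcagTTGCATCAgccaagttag
GARS1: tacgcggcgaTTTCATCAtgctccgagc
NARS1: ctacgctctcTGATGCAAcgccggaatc
YARS2: tccacactgcTGATGGAAaaattaagtt
These lie at chr9:92293693-92293720 (IARS1, minus strand), chr11:3057408-3057435 (CARS1, minus), chr12:57488054-57488081 (MARS1, plus), chr5:33440957-33440984 (TARS1, plus), chr16:70289676-70289703 (AARS1, minus), chr7:30594835-30594862 (GARS1, plus), chr18:57621805-57621832 (NARS1, minus) and chr12:32756077-32756104 (YARS2, minus). Counted with +1 as the first base of the RefSeq start, the IARS1 match spans -13 to -6, the CARS1 match -2 to 6 and the MARS1 match -4 to 4. The matches of AARS1 (-187 to -180) and YARS2 (-197 to -190) are farther upstream. CACGTG was in 8.77% of genes with a window, in 3 mitochondrial genes and in 1 cytosolic gene, IARS1, where it spans -186 to -181 and does not overlap the other match.
IARS1: gttcgttttcCACGTGgaggcgcaaa
CARS2: ctgggatgcaCACGTGcttcgctaac
EARS2: gggagaagccCACGTGtgctattcca
MARS2: gcgcctctcaCACGTGctgtcagaac
These 4 are shown as the synthetase genes with an E-box, at chr9:92293868-92293893 (IARS1, minus), chr13:110706503-110706528 (CARS2, minus), chr16:23557350-23557375 (EARS2, minus) and chr2:197705348-197705373 (MARS2, plus). A match is a description of the letters and not a binding site.

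To ask whether ZDHHC20 silencing moved tRNA charging genes, each gene was tested in the limma fit over all 22189 genes, two-sided, with Benjamini-Hochberg adjustment. At an adjusted p under 0.05, 5 of 37 synthetase genes were called, and all 5 were cytosolic. IARS1, YARS1, VARS1 and CARS1 fell and RARS1 rose. The 4 lower calls are 10.8% of the 37 genes, against 6.84% of all genes tested, and the 1 higher call is 2.7%, against 4.61%. Both directions together gave 13.5% of synthetase genes, 11.5% of all genes tested and 21.7% of the 10908 genes whose mean reached 100, so the share of the family lay near the background and under that of well expressed genes. Within the cytosolic class the share was 25%. In the mitochondrial class limma called 0 of 17, and 5 of them had an unadjusted p under 0.05. The groups did not overlap in 15 synthetase genes (40.5%), 9 cytosolic and 6 mitochondrial, against 28.6% of all genes tested and 42.6% of genes whose mean reached 100.

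The median log2 fold change was 0.05 over the cytosolic genes and -0.04 over the mitochondrial genes, and that of all genes tested was 0.01. Leaving out 1 library moved the cytosolic median to between 0.0076 (without shZDHHC20 replicate 3) and 0.08 (without shZDHHC20 replicate 2). The mitochondrial median lay between -0.08 (without shControl replicate 1) and 0.03 (without shControl replicate 3), and was -0.06 without shZDHHC20 replicate 2. The difference between the class medians, 0.09 with all libraries, then ran from 0.03 (without shZDHHC20 replicate 1) to 0.14 (without shZDHHC20 replicate 2). Of the cytosolic genes, 8 had values below 0 and 12 above, and of the mitochondrial genes, 9 had values below and 8 above. The summed normalized count of the cytosolic class was 86548 ± 319 (SD, n = 3) in shControl and 84398 ± 3657 in shZDHHC20, and that of the mitochondrial class was 14892 ± 128 and 15036 ± 58.0. The sum of all 37 genes in shZDHHC20 was 98.02% of that in shControl. The sum of the family thus differed by less than the spread of the silenced libraries, while a few genes within it moved in opposite directions, as the plot of single libraries shows.

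**Figure D1:**
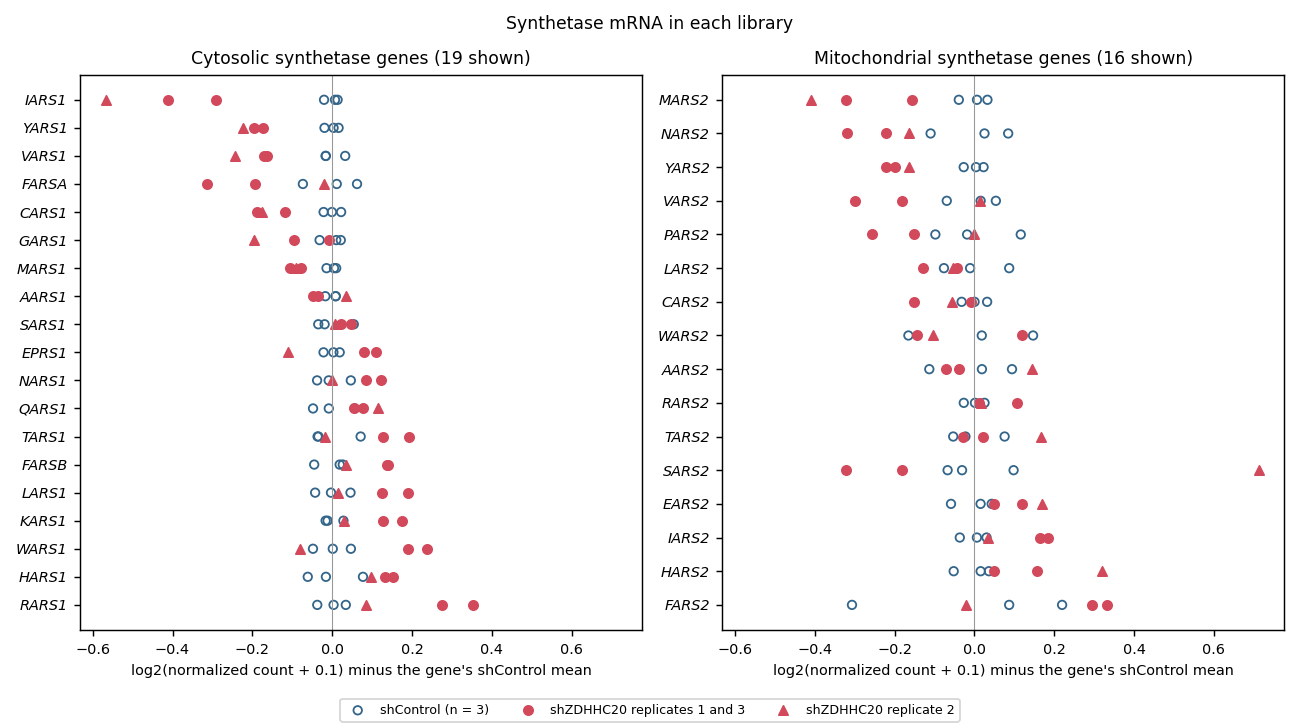
Log2(normalized count + 0.1) of the synthetase genes shown in each of the 6 libraries, minus the mean of the 3 shControl libraries of that gene, with cytosolic genes on the left and mitochondrial genes on the right. Open circles are shControl, filled circles shZDHHC20 replicates 1 and 3, and triangles shZDHHC20 replicate 2. All 3 shZDHHC20 points of IARS1, YARS1, VARS1 and CARS1 lie below their shControl points, and those of RARS1 lie above.

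IARS1 (ENSG00000196305) encodes the cytosolic isoleucyl-tRNA synthetase, a member of the multisynthetase complex, and lies at chr9:92210207-92293756 of GRCh38 on the minus strand. In order of replicate number, shControl held 7626, 7592 and 7449 normalized counts and shZDHHC20 held 5682, 5099.5 and 6176. Every silenced library was below every control library, and replicate 2 was the lowest. The mean fell from 7556 ± 93.9 to 5653 ± 539 (SD, n = 3), to 74.8% of the control. The log2 fold change of -0.42, with a standard error of 0.0607 and an adjusted p of 0.000572 from limma, was the most negative of the 37 genes, and without replicate 2 it was -0.35 (adjusted p = 4.52e-06). The snoRNA gene SNORA84 and the miRNA gene MIR3651 lie within IARS1 on the same strand.

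YARS1 (ENSG00000134684, chr1:32775237-32818153, minus strand) encodes the cytosolic tyrosyl-tRNA synthetase. Its normalized count was 4999, 4955 and 4878 in shControl and 4316, 4235 and 4386 in shZDHHC20, with the groups apart and replicate 2 the lowest by a small margin. The mean fell to 87.2% of the control, from 4944 ± 61.2 to 4312 ± 76.0 (SD, n = 3; log2 fold change -0.20, adjusted p = 0.0109 from limma). The protein-coding gene S100PBP overlaps YARS1 on the other strand. VARS1 (ENSG00000204394, chr6:31777518-31795953, minus strand) encodes the cytosolic valyl-tRNA synthetase, and was at 3831, 3832 and 3963 normalized counts in shControl and at 3444, 3272 and 3462 in shZDHHC20. The groups did not overlap, and the log2 fold change was -0.19 (adjusted p = 0.0193 from limma). CARS1 (ENSG00000110619, chr11:3000922-3057613, minus strand), the cytosolic cysteinyl-tRNA synthetase gene, was at 4961, 4813 and 4883 in shControl and at 4289.7, 4327 and 4502 in shZDHHC20. It fell to 89.5% of the control (log2 fold change -0.16, adjusted p = 0.0360 from limma), again with no overlap of the groups. The antisense gene CARS-AS1 lies on its other strand, and CARSP1 and CARSP2 are pseudogenes by name with which reads could be shared.

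RARS1 (ENSG00000113643, chr5:168486445-168519299, plus strand) encodes the cytosolic arginyl-tRNA synthetase, another member of the complex, and was the 1 gene that rose. Its normalized count was 2189.7, 2237 and 2129 in shControl and 2645, 2318 and 2788 in shZDHHC20. All silenced libraries were above the control libraries, and replicate 2 was the nearest to them. The mean rose from 2185 ± 54.2 to 2583 ± 241 (SD, n = 3), with a log2 fold change of 0.24 (adjusted p = 0.0332 from limma) and of 0.31 without replicate 2 (adjusted p = 7.09e-05). RARSP1 is a pseudogene by name.

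These 5 calls depended on the way the spread was estimated and on single libraries. Without the mean-variance trend limma called 0 of 37 genes and 351 of all genes in place of 2541, and the adjusted p of IARS1 was 0.103. IARS1 was the 1 of the 5 that passed after leaving out shControl replicate 1, shControl replicate 2, shControl replicate 3 or shZDHHC20 replicate 1. RARS1 also lost its call without shZDHHC20 replicate 3, and IARS1 and YARS1 passed with a replicate block.

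The 3 cytosolic genes with the highest means among those not called were GARS1, EPRS1 and MARS1. GARS1, the glycyl-tRNA synthetase gene of both compartments, was at 7971, 8205 and 8269 normalized counts in shControl and at 7631, 7116 and 8106 in shZDHHC20 (log2 fold change -0.10, adjusted p = 0.265 from limma). EPRS1, which encodes the fused glutamyl- and prolyl-tRNA synthetase, was at 7975, 8202 and 8113 and at 8553, 7499 and 8740.04. Its groups overlapped through replicate 2, which was the lowest of all 6 libraries while replicates 1 and 3 were the highest. MARS1, the methionyl-tRNA synthetase gene, was at 7808, 7678 and 7778.5 in shControl and at 7202, 7278 and 7339.8 in shZDHHC20. Its groups did not overlap, but the difference of -0.09 on the log2 scale did not pass the test (adjusted p = 0.189 from limma). Among the other 12 cytosolic genes not called, log2 fold changes ran from -0.18 (FARSA, the alpha subunit of phenylalanyl-tRNA synthetase) to 0.13 (HARS1, the histidyl enzyme). The 95% intervals of the 15 uncalled cytosolic genes reached from -0.35 (FARSA) to 0.28 (WARS1), and their half-widths ran from 0.089 (MARS1) to 0.17 (FARSA).

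**Figure D2:**
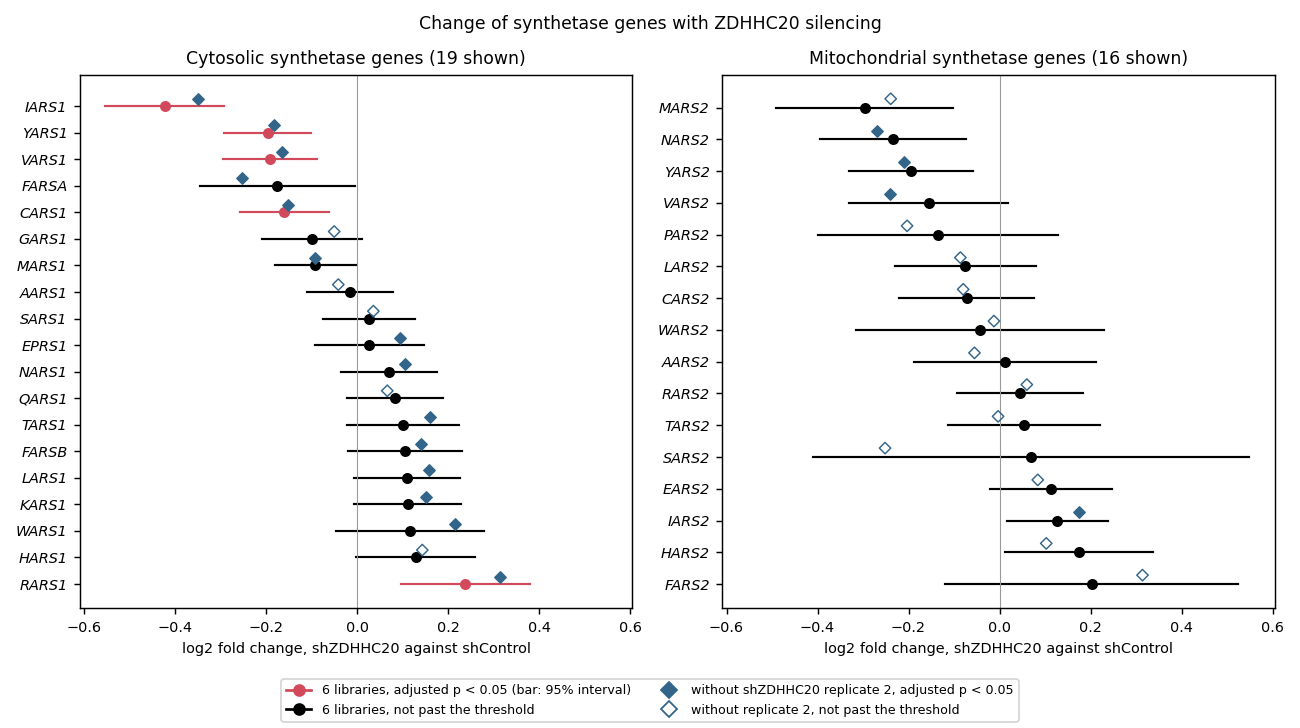
Log2 fold change (shZDHHC20 against shControl) of the cytosolic (left) and mitochondrial (right) synthetase genes shown. Circles with 95% intervals are from all 6 libraries, red where the adjusted p was under 0.05, and diamonds are the values without shZDHHC20 replicate 2, filled where the adjusted p was under 0.05. IARS1 is farthest to the left at -0.42, the called genes are all in the cytosolic panel, and the widest interval is that of SARS2.

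Of the mitochondrial genes with the highest means, IARS2 and EARS2 are described. IARS2, the mitochondrial isoleucyl-tRNA synthetase gene, was at 4828, 4609 and 4748 normalized counts in shControl and at 5298, 4837 and 5373 in shZDHHC20, with all silenced libraries above the control libraries (log2 fold change 0.13, adjusted p = 0.142 from limma). EARS2, the glutamyl gene, was at 1049.9, 997 and 1070.3 in shControl and at 1075, 1168 and 1128 in shZDHHC20, where replicate 2 was the highest. Its groups did not overlap, but the log2 fold change of 0.11 did not pass the test (adjusted p = 0.304 from limma).

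MARS2, NARS2 and YARS2 are named because their adjusted p-values lay just outside the threshold, a choice made after the values were seen. MARS2, the mitochondrial methionyl-tRNA synthetase gene, was at 401, 389 and 408 in shControl and at 358, 301 and 319.5 in shZDHHC20 (log2 fold change -0.30, adjusted p = 0.0509 from limma). NARS2, the asparaginyl gene, was at 837, 872 and 762 and at 659, 734 and 705, and YARS2, the tyrosyl gene, was at 838, 856 and 867 and at 744, 762 and 731. In all 3 genes the groups did not overlap and the silenced libraries were the lower. The adjusted p was 0.0619 for NARS2 and 0.0659 for YARS2. MARS2 passed the threshold with a pseudocount of 1, a minimum mean of 5, robust moderation or without shZDHHC20 replicate 1. The other mitochondrial genes ran from -0.16 (VARS2) to 0.20 (FARS2) on the log2 scale. Precision was lower in this class, with a median 95% half-width of 0.163 against 0.117 for the cytosolic genes, and SARS2, the seryl gene, had the widest at 0.479. Its value was 179 in shZDHHC20 replicate 2 and 96.5 and 87.6 in replicates 1 and 3.

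Replicate 2, a single library, ranked differently in the classes. Among the silenced libraries it was the lowest in 15 of 20 cytosolic genes (75%) and in 4 of 17 mitochondrial genes (23.5%), against 39.2% of all genes tested. It was the highest in 3 cytosolic genes and in 9 mitochondrial genes (52.9%), against 36.9% of all genes. The sum of the cytosolic class was 84942 and 87753 in shZDHHC20 replicates 1 and 3 and 80499 in replicate 2. The mitochondrial sum was 15089 and 15044 in replicates 1 and 3 and 14974 in replicate 2. These sums are not scaled to the library totals, of which that of replicate 2 was the smallest (17083277). As a share of its library, the mitochondrial sum was the highest in replicate 2 (0.08765%) and the cytosolic sum the lowest (0.4712%). The share of mitochondrial-genome transcripts was also lowest in replicate 2 (4.01%), and its part in these differences was not tested.

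Without replicate 2, limma called 19 of 37 synthetase genes, among them all 5 of the calls above. In that fit 11.1% of 22258 genes were called lower and 8.93% higher. The share among genes whose mean reached 100 is not given for this fit. With all libraries it was 21.7%, against 11.5% of all genes tested, so the 19 calls lack a background of like level. Of the cytosolic genes, 6 were lower (IARS1, YARS1, VARS1, CARS1, FARSA and MARS1) and 9 were higher, among them RARS1, WARS1, TARS1, LARS1, KARS1, FARSB, NARS1 and EPRS1. The log2 fold changes of YARS1, VARS1 and CARS1 were then -0.18, -0.17 and -0.15. Of the mitochondrial genes, NARS2, YARS2 and VARS2 were lower and IARS2 was higher. WARS1, the tryptophanyl gene, moved from 0.12 with all libraries to 0.21 without replicate 2 (adjusted p = 0.00200 from limma), and LARS1, the leucyl gene of the complex, from 0.11 to 0.16 (adjusted p = 0.00541).

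Both genes for 1 amino acid did not move as a pair in general. Over the 18 pairs of a cytosolic and a mitochondrial gene, which cover 17 amino acids, the signs of the log2 fold changes were alike in 10, and the cytosolic value was the lower in 10 and the mitochondrial in 8. Without replicate 2 the signs were alike in 9, and the cytosolic value was the lower in 4 and the mitochondrial in 14. The widest gap was that of isoleucine, with -0.42 for IARS1 and 0.13 for IARS2. Tyrosine was the closest, with -0.20 for YARS1 and -0.19 for YARS2, and valine had -0.19 for VARS1 and -0.16 for VARS2. The histidine pair, 0.13 for HARS1 and 0.17 for HARS2, consists of neighbouring genes on chromosome 5 that overlap at their starts on opposite strands. No test of the difference within a pair was run.

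**Figure D3:**
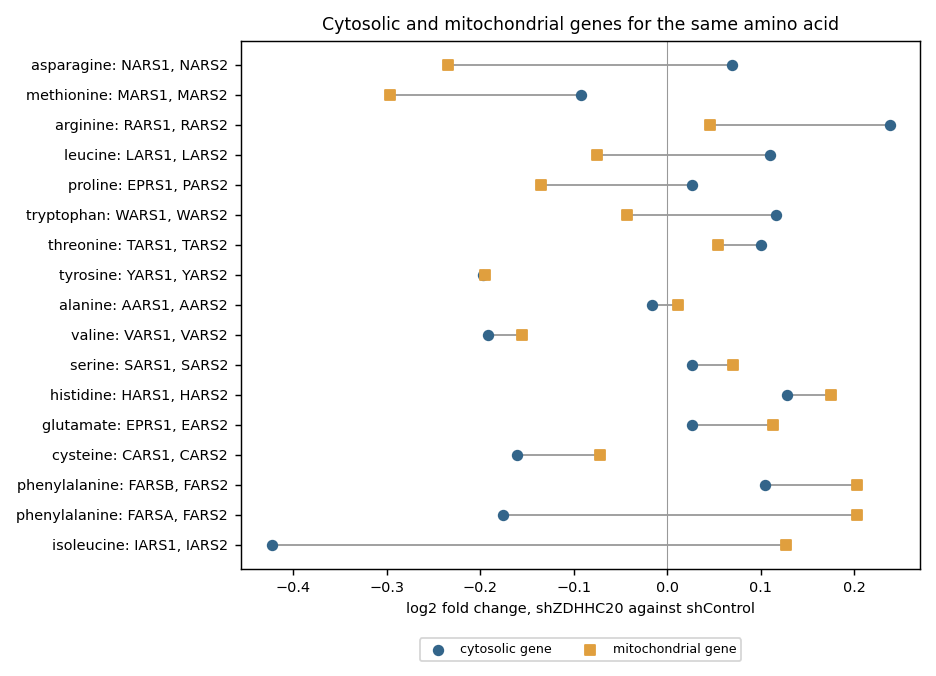
Log2 fold change (shZDHHC20 against shControl) of the cytosolic gene (blue circles) and the mitochondrial gene (orange squares) for the same amino acid, shown for 17 of the 18 pairs, joined by a line and ordered by their gap. EPRS1 appears for glutamate and for proline, and FARS2 against both subunit genes. The isoleucine line is the longest, from -0.42 to 0.13, and the tyrosine points nearly coincide.

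Levels were compared between genes only per length, as the shControl normalized count per kilobase of exon. The cytosolic genes had a median of 638 per kilobase and ran from 145 ± 7.14 (HARS1) to 1962 ± 37.8 (GARS1, SD, n = 3). The mitochondrial genes had a median of 132 and ran from 33.9 ± 2.07 (SARS2) to 1135 ± 26.6 (IARS2). The cytosolic median was thus 4.82 times the mitochondrial, or 5.35 times with the length of the longest transcript. Below GARS1 the order was EPRS1 (1486 per kilobase), AARS1 (1383), NARS1 (1209), TARS1 (1169) and IARS2, and the steps from NARS1 to TARS1 and from TARS1 to IARS2 were within their SDs. In all, 14 of 36 neighbours in the order lay within their spread. IARS2 was the 1 mitochondrial gene among the highest 10, and HARS1 the 1 cytosolic gene among the lowest 15. The cytosolic gene was above its mitochondrial partner per kilobase in 16 of 18 pairs, and the exceptions were HARS1 (0.647 of HARS2) and IARS1 (0.899 of IARS2). With the length of the longest transcript these ratios were 0.978 and 1.22. Of the genes that serve both compartments, GARS1 stood at the top and KARS1 at 529 per kilobase in the middle of the order.

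**Figure D4:**
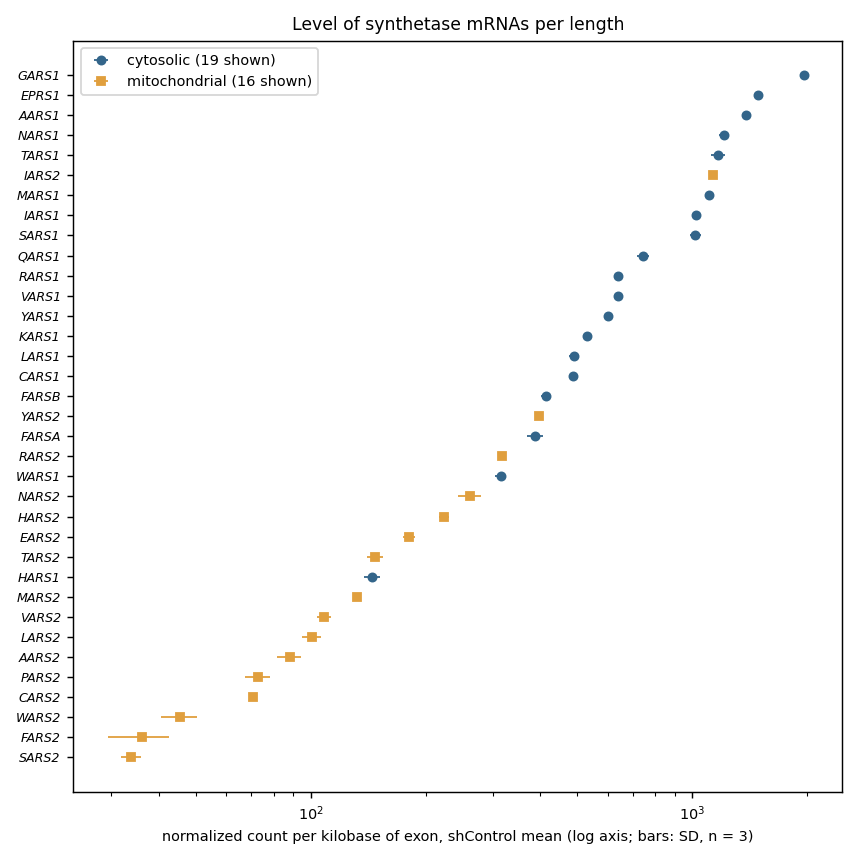
Mean normalized count per kilobase of exon in the 3 shControl libraries for the synthetase genes shown, on a log axis, with bars of 1 SD. Cytosolic genes (blue circles) fill most of the upper part with a median of 638, and mitochondrial genes (orange squares) most of the lower part with a median of 132. The classes mix in between, as with YARS2 (397) above FARSA (387). IARS2 is the highest mitochondrial gene at 1135 and HARS1 the lowest cytosolic gene at 145.

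The 8 cytosolic genes of the multisynthetase complex held 1 lower call (IARS1) and 1 higher call (RARS1), with a median log2 fold change of 0.07. The 12 outside the complex held 3 lower calls, with a median of 0.00. Beside these counts and those below, 6.84% of all genes tested were called lower and 4.61% higher. Among genes whose mean reached 100 these shares were 13.3% and 8.41%. Synthetases also fall into a pair of unrelated catalytic folds, class I and class II, and this split was added after the values were seen and has no test. All 5 called genes were of class I, which held 9 cytosolic genes with a median of -0.09. The 10 cytosolic class II genes had a median of 0.07, and limma called 0 of them, with 1 (FARSA) at an unadjusted p under 0.05. Without replicate 2 there were 5 lower and 3 higher calls in class I and 1 lower and 5 higher calls in class II. The medians were then -0.09 and 0.12, and that fit called 11.1% of all genes lower and 8.93% higher. Of the mitochondrial genes, limma called 0 of 9 in class I (median -0.07) and 0 of 8 in class II (median 0.03) with all libraries. Without replicate 2 it called 2 lower and 1 higher in mitochondrial class I, and 1 lower and 0 higher in mitochondrial class II. The 7 cytosolic genes with TGATGNAA in their window held 2 of the lower calls (IARS1 and CARS1) and had a median log2 fold change of -0.09. The 9 with a window and no match held 1 higher call (RARS1) and had a median of 0.10. YARS1 and VARS1, the other lower calls, had no window and are in neither set. This split by motif was not planned and has no test. Values with the motif ran from -0.42 to 0.10 and those without it from -0.18 to 0.24, so the ranges overlapped.

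Among the scaffolds of the complex, AIMP1 rose from 798 ± 45.5 to 960 ± 60.4 normalized counts (SD, n = 3; log2 fold change 0.27, adjusted p = 0.0296 from limma). AIMP2 (0.03, adjusted p = 0.806) and EEF1E1 (-0.12, adjusted p = 0.489) did not pass. Of 6 genes that complete charging in mitochondria, 1 fell, GATC, a subunit of the amidotransferase that makes glutaminyl-tRNA from glutamyl-tRNA. It was at 406, 359 and 350.4 in shControl and at 251, 214 and 211 in shZDHHC20 (log2 fold change -0.72, adjusted p = 0.000582 from limma). This was a larger change than that of any synthetase, and SRSF9 overlaps GATC on the other strand. GATB, another subunit of this enzyme, had a value of 0.14 (adjusted p = 0.577). Of 5 synthetase-related and editing genes, TARS3, a second cytosolic threonyl-tRNA synthetase, rose from 293 ± 22.4 to 388 ± 57.8 (log2 fold change 0.40, adjusted p = 0.0360 from limma), while TARS1 was at 0.10. PRORSD1P (0.50, adjusted p = 0.301) and DTD1 (-0.13, adjusted p = 0.344), the latter an enzyme that removes D-amino acids from tRNA, did not pass.

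Of 20 tRNA maturation and export genes, 4 fell, with a median of -0.10 over the list. They were TRNT1 (-0.32, adjusted p = 0.0148 from limma), which adds the CCA end that synthetases charge, PUS1 (-0.34, adjusted p = 0.0213), a pseudouridine synthase, TRMT5 (-0.31, adjusted p = 0.0436), a tRNA methyltransferase, and TSEN34 (-0.18, adjusted p = 0.0460), a subunit of the splicing endonuclease, named here after the values were seen. Of 30 amino acid response genes, 13 fell and 1 rose (43.3% and 3.33%), with a median of -0.13. SLC7A5, the light chain of a large neutral amino acid transporter, fell from 15239 ± 477 to 10928 ± 456 (log2 fold change -0.48, adjusted p = 2.42e-05 from limma). CHAC1, a glutathione-degrading enzyme, fell by 0.51 on the log2 scale (adjusted p = 0.000639 from limma) and PSAT1, a serine synthesis enzyme, fell by 0.30 (adjusted p = 0.000639). TRIB3, a pseudokinase gene named here after the values were seen, rose (0.18, adjusted p = 0.0258). ATF4 itself had overlapping groups (6880 ± 76.7 and 6482 ± 280.3 normalized counts, log2 fold change -0.09, adjusted p = 0.277). TGATGNAA was in the window of 6 of 24 genes of this list. WARS1 is known to be induced by interferon-gamma, and of 7 genes of that response tested 3 fell, namely the transcription factor IRF1 (-0.51, adjusted p = 0.00247 from limma), the peptide transporter TAP1 (-0.43, adjusted p = 0.00623) and the immunoproteasome subunit PSMB9 (-0.65, adjusted p = 0.0290). PSMB9 and TAP1 overlap on opposite strands, and WARS1 was at 0.12.

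These lists were read against the 6.84% of all genes called lower and 4.61% called higher, which were 13.3% and 8.41% among genes whose mean reached 100. Without replicate 2 the amino acid response list held 17 lower and 3 higher calls and the maturation list 5 lower and 1 higher, against 11.1% and 8.93% of all genes. The amino acid response list held 9 calls without shControl replicate 1, shControl replicate 2 or shZDHHC20 replicate 1, in place of 14, 10 without shControl replicate 3 and 12 without shZDHHC20 replicate 3. The maturation list, with 4 calls from all libraries, held 0 without shControl replicate 2, shControl replicate 3 or shZDHHC20 replicate 1 and 1 without shControl replicate 1 or shZDHHC20 replicate 3, and it held 2 with a replicate block. AIMP1 kept its call without shZDHHC20 replicate 2 but lost it without each of the other 5 libraries and with the block. TARS3 lost its call without each shControl library and without shZDHHC20 replicate 3. GATC kept its call without each library in turn, and the interferon-gamma list held 1 or 2 calls without a library other than shZDHHC20 replicate 2. Without the mean-variance trend 1 call was left over all 6 lists, in the amino acid response list. The adjusted p of GATC from limma was then 0.0581. The lists were chosen with earlier results of these data known, so their counts describe these libraries only.

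Reads shared between genes limit several of these values. Of the 37 synthetase genes, 23 overlap a gene on the other strand, 12 overlap one on the same strand and 11 have a pseudogene by name, and whether counting used the strand is not given in the sources used here. With the genes that have an overlap on the other strand or a named pseudogene left out, a choice made after the data were seen, 6 cytosolic and 4 mitochondrial genes were left. The difference between the class medians was then 0.17 in place of 0.09.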

How the data were processed

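RNA-seq was measured in 3 shControl and 3 shZDHHC20 libraries of PANC-1 cells. The authors deposited 1 table with a normalized signal per gene and library, named as FPKM. Within a tolerance of 0.05 of a step, 100% of the values were whole multiples of the smallest value of their library, which whole reads scaled by library would give, and the planned log2 test was kept without a count test. The submitters' processing notes name hg19, and the aligner, counter and normalization tool are not given in the sources used here. Columns named siZDHHC20 and NC were assigned by the group and the number in their names. The prefix si differs from the sh of the sample titles, and the sources used here do not explain the difference. No intervals for counting error are given, since depth is known only relative to the other libraries.

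Gene names came from a reference table for 27175 identifiers and from GENCODE 29 for 219. Positions, exon lengths and overlaps came from GENCODE 29 on GRCh38 by Ensembl identifier, and promoter windows from RefSeq. In R 4.3.3, limma 3.58.1 was fitted with lmFit and eBayes with a mean-variance trend to log2(normalized count + 0.1) of genes whose mean reached 1, with group as the term. Tests were two-sided, with Benjamini-Hochberg adjustment across the whole table and calls at 0.05. For genes with low values, fold changes on this scale depend on the pseudocount and can understate or overstate the ratio of the means. Scripts were tested on simulated data, and figures were drawn with matplotlib 3.10.9 in Python 3.11.15.

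The synthetase genes and all lists were chosen with earlier results of these data known. Values per library are given for each synthetase gene called and for the 3 uncalled genes of each class with the highest means, and of each list the 3 genes with the smallest adjusted p are named with ATF4, AIMP1, AIMP2 and EEF1E1. Results for some single genes of this rule are not reported here, although counts, sums and medians include them. Catalytic classes and the set without overlapping genes were added after the values were seen. The split of log2 fold changes by promoter motif was not planned. The fit was repeated with a replicate block, with each library left out in turn, with robust moderation, with no mean-variance trend, with quantile normalization or median-ratio scaling, with a minimum mean of 5 or none, with pseudocounts of 0.01 and 1, with GARS1 and KARS1 left out, and with the longest transcript as gene length.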

Additional observations from a re-analysis of the deposited data

How the results depend on the processing

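The log2 fold change of ZDHHC20 kept its direction and its side of the threshold in all 15 alternatives. Of the 5 synthetase genes called, 0 were called in every alternative, and 15 of those not called passed in at least 1. IARS1 lost its call only without the mean-variance trend, where its adjusted p was 0.103, and its adjusted p ranged from 4.52e-06 to 0.103 over the alternatives. The ranges of the adjusted p were 0.000427 to 0.154 for YARS1, 0.00197 to 0.183 for VARS1, 0.00323 to 0.224 for CARS1 and 7.09e-05 to 0.255 for RARS1. Without the trend 351 genes were called over all genes in place of 2541, with 0 cytosolic genes lower, 0 higher and 1 gene of the pathway lists in place of 24. The number of mitochondrial genes called lower, 0 in the main analysis, was 1 with a pseudocount of 1, 3 with a minimum mean of 5 and 2 with robust moderation. Leaving out each library in turn gave 1233 to 4454 genes called over all genes, 1 to 6 cytosolic genes lower, 0 to 9 cytosolic genes higher, 0 to 3 mitochondrial genes lower, 0 to 1 mitochondrial gene higher, 12 to 33 genes of the pathway lists and a mitochondrial median log2 fold change of -0.08 (-0.08064) to 0.03 (0.02716), a cytosolic median of 0.0076 to 0.08 (0.08037) and a difference between them of 0.03 (0.0272) to 0.14 (0.1354), with the highest counts without shZDHHC20 replicate 2. With genes that overlap on the other strand or have a named pseudogene left out, the mitochondrial median was -0.15 (-0.1453) and the difference between class medians 0.17 (0.1716). The ratio of class medians per kilobase was 5.35 with the longest transcript, in place of 4.82. The cause of these changes was not tested.

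With a replicate block, 2 cytosolic genes were called lower and 0 higher, and IARS1 and YARS1 were the 2 of the 5 calls that held. Deviations of libraries with the same number correlated between -0.271 and -0.0784, and 0 of 3 shZDHHC20 libraries correlated best with its own number. The deviations of the 3 libraries of a group sum to 0, so these correlations depend on one another. They cannot decide whether the numbers pair the libraries.

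The sign of 7 uncalled genes changed in at least 1 alternative. AARS1 was at 0.02 (0.01981) with quantile normalization, and the others changed on leaving out a library. Among these, the ranges were -0.05505 to 0.05864 for AARS2, -0.2516 to 0.2652 for SARS2, -0.003102 to 0.0945 for TARS2, -0.1253 to 0.03086 for WARS2 and -0.01563 to 0.09484 for EPRS1. With 3 libraries a group, the 95% half-widths ran from 0.089 (MARS1) to 0.479 (SARS2) on the log2 scale. Their median over all 37 genes, called or not, was 0.136.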
